A study of Homo sapiens with 6 samples.

Results

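The 10 genes described here encode the subunits, loader and modifiers of cohesin. They were chosen by gene symbol, as the core ring subunits SMC1A, SMC3 and RAD21, the STAG subunits STAG1 and STAG2, the loader NIPBL, the regulators PDS5A and PDS5B, and the acetyltransferases ESCO1 and ESCO2. All 10 were found, each as a single row, among the 60504 genes of the table. Gene counts were compared between 3 WM164 libraries with an empty expression vector (EV) and 3 with an HDAC8 expression vector. WM164 is a human melanoma cell line with the BRAFV600E genotype, which both groups share. Cells of both groups were transfected with their plasmid and kept under hygromycin selection, and neither the labels nor the methods say whether they were clones or pools. The labels number the libraries as biological replicates but name no separate cultures, so the p-values measure the spread between these libraries.

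Cohesin is a ring of the coiled-coil proteins SMC1A and SMC3, closed by the kleisin RAD21 and bound by either STAG1 or STAG2. NIPBL loads the ring onto chromatin and stimulates loop extrusion, and WAPL together with the PDS5 proteins releases it. ESCO1 and ESCO2 acetylate SMC3, with ESCO2 acting mainly in S phase, which stabilises cohesion between sister chromatids. HDAC8 removes this acetyl group so that cohesin can be used again, which makes SMC3 a substrate of the enzyme whose vector was introduced. Loss of NIPBL, SMC1A, SMC3, RAD21 or HDAC8 function underlies Cornelia de Lange syndrome, and STAG2 is recurrently mutated in tumours.

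The libraries held 34741092 to 42041453 rounded counts, and the totals overlapped between the groups. Mitochondrially encoded genes took 9.66%, 10.22% and 12.83% of the counts in EV and 4.46%, 7.94% and 7.63% in the HDAC8 libraries, so that this share was lower in every HDAC8 library. With these genes removed, no cohesin gene changed its side of the adjusted p threshold. Their removal leaves the counts of the other genes as they were, so the part of this share in the cohesin values was not tested. Of 8 melanocyte markers 5 were lower at both thresholds in the HDAC8 group, against 5.44% of all genes tested. MITF (log2 fold change -0.20, DESeq2 adjusted p = 0.544) and SOX10 (-0.33, DESeq2 adjusted p = 0.211) did not pass. MLANA was at 8323 to 9052 normalized counts in EV and 236.9 to 372.4 in the HDAC8 group, and TYRP1 was near 0 in both. The sum of the 8 markers was 244961 to 328760 in EV and 137043 to 182218 in the HDAC8 group, most of it from PMEL. The sum of 6 fibroblast markers was 2366 to 2869 and 1150 to 2188, most of it from LUM, with DCN at 0 in every library. Keratinocyte markers summed to 185.9 to 362.8 and 165.5 to 201.8, with EPCAM at 0, and blood and endothelial markers to 110.2 to 202.9 and 164.4 to 305.3. Of the latter, CD3E was at 0 in the EV libraries and at 78.7, 91.1 and 50.1 in the HDAC8 libraries, while PTPRC was at 0 in 5 libraries. Here a normalized count is a count divided by the DESeq2 size factor of its library, and a gene is called at an adjusted p under 0.05 and a log2 fold change of 0.58 or more in either direction. The part of these markers in the cohesin values was not tested. HDAC8 itself was at 383.8, 404.4 and 478.8 normalized counts in EV and 484.8, 445.5 and 473.7 in the HDAC8 group (log2 fold change 0.15, DESeq2 adjusted p = 0.856). The groups overlapped in this transcript, and the 95% interval of its log2 fold change was -0.41 to 0.70. These libraries thus do not show overexpression of the gene carried by the vector, and the reason was not tested. In the text below, "HDAC8 libraries" means those with that label.

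Promoter sequences are shown for ring subunits, the loader and a STAG subunit, because the first had an adjusted p under 0.05 and the others did not. The RefSeq (GRCh38.p14) promoters used here covered 7 of the 10 genes, with 10 start sites in all. RAD21, ESCO1 and ESCO2 were not among them and were not searched. The 250 bases before each start were searched on both strands. The motifs were TGANTCA (bound by AP-1, the JUN and FOS dimer), CACGTG (an E-box that MITF can bind), TTTGAA (the cell cycle genes homology region, CHR) and the E2F octamers TTTCCCGC, TTTGGCGC, TTTCGCGC and TTTGCCGC. None of these motifs overlaps another in the sequences below, where capitals mark the matches.
SMC3 promoter: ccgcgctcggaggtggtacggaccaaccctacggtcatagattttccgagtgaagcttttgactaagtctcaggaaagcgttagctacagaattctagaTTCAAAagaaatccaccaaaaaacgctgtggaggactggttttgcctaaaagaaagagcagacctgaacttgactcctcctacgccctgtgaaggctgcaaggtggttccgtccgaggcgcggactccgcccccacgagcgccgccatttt
SMC1A promoter: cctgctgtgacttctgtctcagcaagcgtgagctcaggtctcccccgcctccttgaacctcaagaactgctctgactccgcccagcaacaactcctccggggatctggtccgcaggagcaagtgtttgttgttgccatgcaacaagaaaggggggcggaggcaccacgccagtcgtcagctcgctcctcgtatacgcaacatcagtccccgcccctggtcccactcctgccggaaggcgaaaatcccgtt
NIPBL promoter: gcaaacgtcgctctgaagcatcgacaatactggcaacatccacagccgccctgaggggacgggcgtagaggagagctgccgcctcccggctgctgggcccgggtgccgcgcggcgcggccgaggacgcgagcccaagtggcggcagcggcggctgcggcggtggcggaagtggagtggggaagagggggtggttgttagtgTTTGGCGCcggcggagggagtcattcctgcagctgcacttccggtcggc
STAG1 promoter: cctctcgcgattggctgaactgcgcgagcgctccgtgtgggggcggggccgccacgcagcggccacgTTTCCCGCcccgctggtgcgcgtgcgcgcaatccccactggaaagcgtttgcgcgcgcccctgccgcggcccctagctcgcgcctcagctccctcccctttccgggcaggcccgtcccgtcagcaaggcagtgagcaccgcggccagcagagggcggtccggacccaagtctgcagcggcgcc
The SMC3 sequence lies at chr10:110567445-110567694 on the plus strand and holds a CHR match on the opposite strand, which reads TTCAAA here. The SMC1A sequence lies at chrX:53422729-53422978 on the minus strand, before the outer of 2 start sites, and holds no match. An E2F octamer, TTTCCCGC, stands 20 bases before the inner SMC1A start. The NIPBL sequence (chr5:36876519-36876768, plus strand) and the STAG1 sequence (chr3:136752379-136752628, minus strand) each hold an E2F octamer, 49 and 183 bases before the start. One of the 3 STAG2 starts has an E2F octamer as well, 51 bases before it, so 4 of the 10 windows, each of a different gene, had an E2F match. An E2F match was found in 2.79% of all 35116 RefSeq promoter windows of this length, and in 4.29% of the 15115 windows with a GC content of 60% to 80%. A CHR match was found in 13.3% of all windows and in 4.13% of those with 60% to 80% GC. The SMC3 window, at 52.8%, lies below that range. No AP-1 or E-box match was found in these windows of the 7 genes searched. The shares were 6.57% and 6.34% of all windows, and 2.91% and 8.99% of those with 60% to 80% GC. This says only that these letters are not there. A match is a description of the sequence and not of binding.

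Transcripts of the core ring were higher in the libraries labelled HDAC8 by a small amount. SMC1A, SMC3 and RAD21 were 1.41-fold, 1.37-fold and 1.3-fold higher, with DESeq2 adjusted p under 0.05 but below the log2 fold change minimum of 0.58. Of all genes averaging 500 or more normalized counts, 11.1% were higher by this adjusted p. With edgeR, 0 of the cohesin genes were. None of the other 7 genes passed the adjusted p. ESCO1 was the only one of these whose groups did not overlap, with lower values in the HDAC8 libraries. Among all genes at that mean count, the groups did not overlap in 19% that were higher and 20.1% that were lower.

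SMC1A (ENSG00000072501, GRCh38 chromosome X, 53374149 to 53422728, minus strand) encodes an ATPase arm of the ring. EV libraries had normalized counts of 5742, 7504 and 7287, and HDAC8 libraries had 10877, 9313 and 8704. Every HDAC8 library was above every EV library, and EV 1 was the lowest. The mean was 6844 ± 960.8 against 9631 ± 1121 (SD, n = 3), a log2 fold change of 0.49 (adjusted p = 0.0156 by DESeq2, SE 0.15). Without EV replicate 1 the log2 fold change was 0.38 and the adjusted p 0.187, and without EV replicate 3 they were 0.53 and 0.0577.

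SMC3 (ENSG00000108055, chromosome 10, 110567684 to 110606048, plus strand) encodes the other ATPase arm, which HDAC8 deacetylates. It was at 4321, 3869 and 4607 normalized counts in EV and at 5323, 6601 and 5651 in the HDAC8 group. The groups did not overlap, and the means were 4266 ± 372.2 and 5858 ± 663.7 (SD, n = 3). The log2 fold change was 0.46 (adjusted p = 0.024 by DESeq2, SE 0.15). Its counts were fractional in 5 of the 6 libraries, which RSEM gives where reads match more than 1 place. The adjusted p was above 0.05 in 5 of the 6 fits that left out a library, with a range of 0.00128 to 0.127.

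RAD21 (ENSG00000164754, chromosome 8) encodes the kleisin that bridges the SMC heads and is cut by separase at anaphase. It had the tightest replicates of the ring, with 10694, 9686 and 10892 normalized counts in EV and 12990, 13838 and 13866 in the HDAC8 libraries. The gap between the highest EV and the lowest HDAC8 library exceeded the range within either group. The means were 10424 ± 646.6 and 13564 ± 498.1 (SD, n = 3), a log2 fold change of 0.38 (adjusted p = 0.0218 by DESeq2, SE 0.12). Its counts were fractional in all 6 libraries, and 5.89% of its exonic bases lie opposite exons of other genes. The adjusted p ran from 7.69e-04 to 0.144 across the fits that left out a library and was under 0.05 only without HDAC8 replicate 1.

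**Figure D1:**
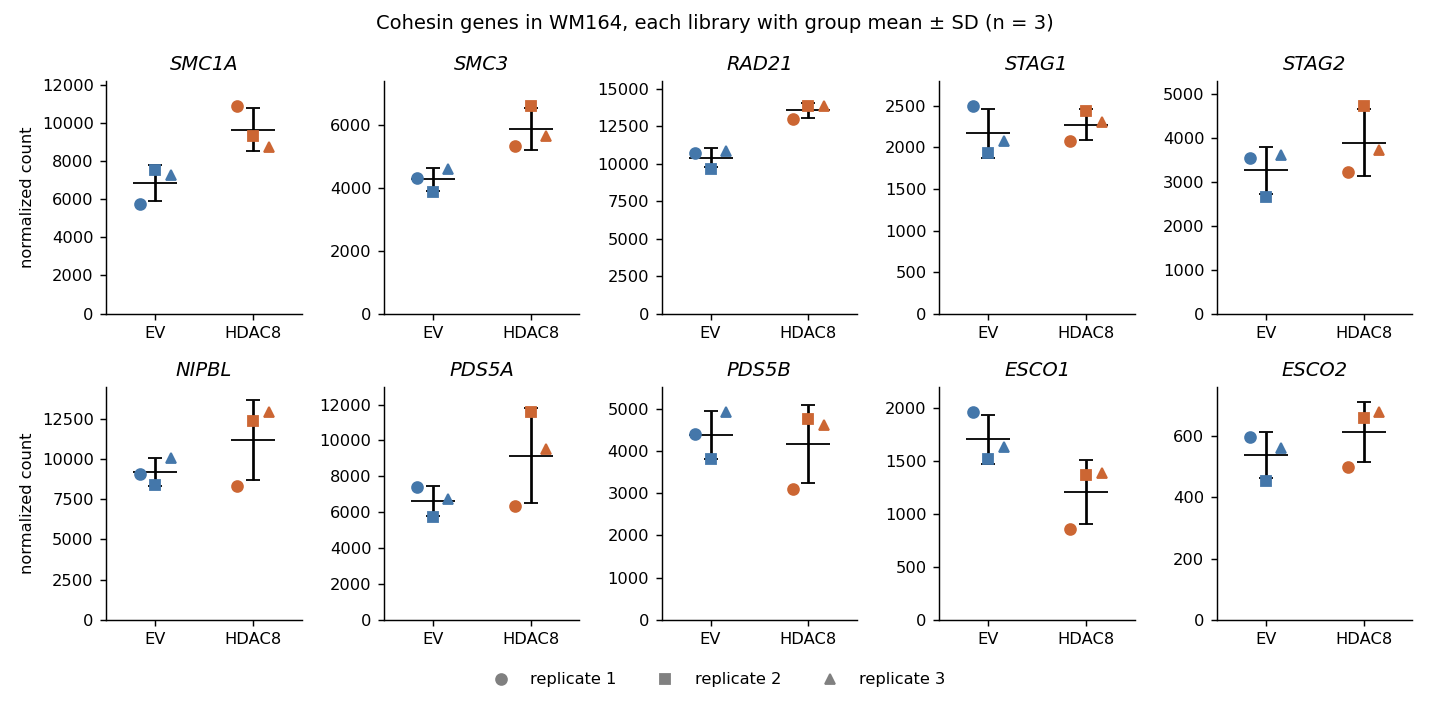
Normalized counts (y axis, from 0) of the 10 cohesin genes in the EV (blue) and HDAC8 (orange) libraries, with the group mean and SD in black (n = 3). In SMC1A, SMC3 and RAD21 every HDAC8 library lies above every EV library, in ESCO1 every HDAC8 library lies below, and in the other genes the groups overlap.

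The STAG subunits did not pass the test. STAG1 (ENSG00000118007, chromosome 3, 136336236 to 136752403, minus strand), the subunit that favours telomeres and long-lived cohesin, was at 2498, 1929 and 2081 normalized counts in EV and 2076, 2440 and 2307 in the HDAC8 group. Its log2 fold change was 0.07 (95% interval -0.28 to 0.42, DESeq2 adjusted p = 0.906). Opposite-strand exons of PCCB cover 21.18% of its exonic bases, and strand-specific counting is not stated. STAG2 (ENSG00000101972, chromosome X, 123960212 to 124422664, plus strand), the more abundant subunit in most somatic cells, was at 3544, 2654 and 3612 in EV and 3217, 4730 and 3732 in the HDAC8 group. Both groups overlapped, and the log2 fold change was 0.25 (95% interval -0.12 to 0.62, DESeq2 adjusted p = 0.484). The intervals limit a change to less than 1.33-fold up for STAG1 and 1.54-fold up for STAG2.

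NIPBL (ENSG00000164190, chromosome 5, 36876769 to 37066413, plus strand), the loader, was at 9083, 8357 and 10064 normalized counts in EV and 8327, 12336 and 12904 in the HDAC8 libraries. HDAC8 1 was below every EV library and the others labelled HDAC8 were above every EV library. The log2 fold change was 0.29 (adjusted p = 0.321 by DESeq2, SE 0.17), and without HDAC8 replicate 1 it was 0.46 with an adjusted p of 5.53e-04.

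PDS5A and PDS5B encode paralogous proteins that sit on the ring and take part in both its release and its acetylation. PDS5A (ENSG00000121892, chromosome 4, 39822863 to 39977956, minus strand) was at 7388, 5759 and 6729 in EV and 6352, 11583 and 9553 in the HDAC8 group, so that HDAC8 1 lay within the EV range and the other HDAC8 libraries above it. Its log2 fold change was 0.47 (adjusted p = 0.0989 by DESeq2, SE 0.20). Without HDAC8 replicate 1 it was 0.67 with an adjusted p of 1.31e-05, past both thresholds. PDS5B (ENSG00000083642, chromosome 13, 32586452 to 32778019, plus strand) was at 4406, 3796 and 4916 in EV and 3089, 4746 and 4619 in the HDAC8 group. The groups overlapped, and its log2 fold change was -0.08 (95% interval -0.44 to 0.29, DESeq2 adjusted p = 0.902).

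The acetyltransferase genes had estimates of opposite sign. ESCO1 (ENSG00000141446, chromosome 18, 21529284 to 21600884, minus strand), which acetylates SMC3 throughout the cell cycle, was at 1961, 1517 and 1634 normalized counts in EV and at 858.5, 1371 and 1387 in the HDAC8 libraries. All HDAC8 libraries were below all EV libraries, and HDAC8 1 was the lowest. The means were 1704 ± 230.1 and 1206 ± 300.8 (SD, n = 3), with a log2 fold change of -0.50 (SE 0.23, 95% interval -0.95 to -0.05), which did not pass (DESeq2 adjusted p = 0.15). ESCO2 (ENSG00000171320, chromosome 8), the S phase enzyme, was the lowest of the 10 genes, at 597.7, 453.9 and 561.5 in EV and 500.2, 659.6 and 678.4 in the HDAC8 group. Its groups overlapped (log2 fold change 0.19, 95% interval -0.35 to 0.72, DESeq2 adjusted p = 0.791).

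Of the 10 genes, 0 were called by DESeq2 at both thresholds in either direction, against 5.57% of the genes tested called higher and 5.44% called lower. edgeR (4.13% higher and 3.99% lower over all genes) and limma-voom (3.8% and 4.14%) also called 0. At an unadjusted p under 0.05 DESeq2 counted 4 higher and 1 lower, against 9.75% and 9.68% of all genes (19.4% in either direction). By the adjusted p alone 3 of 10 were higher and 0 lower, where 6.63% of the genes tested were higher and 6.38% lower, or 11.1% of those averaging 500 or more normalized counts, as all 10 did. The number higher by the adjusted p alone was 0 with edgeR's quasi-likelihood test (4.43% of all genes), 1 with limma-voom (SMC1A, 4.17%) and 0 with the replicate number as a block (5.69%). edgeR gave an adjusted p of 0.0581, 0.0752 and 0.141 for SMC1A, SMC3 and RAD21. The groups did not overlap in 3 genes that were higher and 1 that was lower, against 19% and 20.1% of all genes at that mean count (11.3% and 12.7% of all 26162 genes fitted). The median log2 fold change was 0.27 over the 10 genes and 0.46 over the ring, against -0.00 over all genes tested. In bulk RNA, a change in the share of cells in a cell cycle phase and a change in the RNA per cell cannot be told apart.

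**Figure D2:**
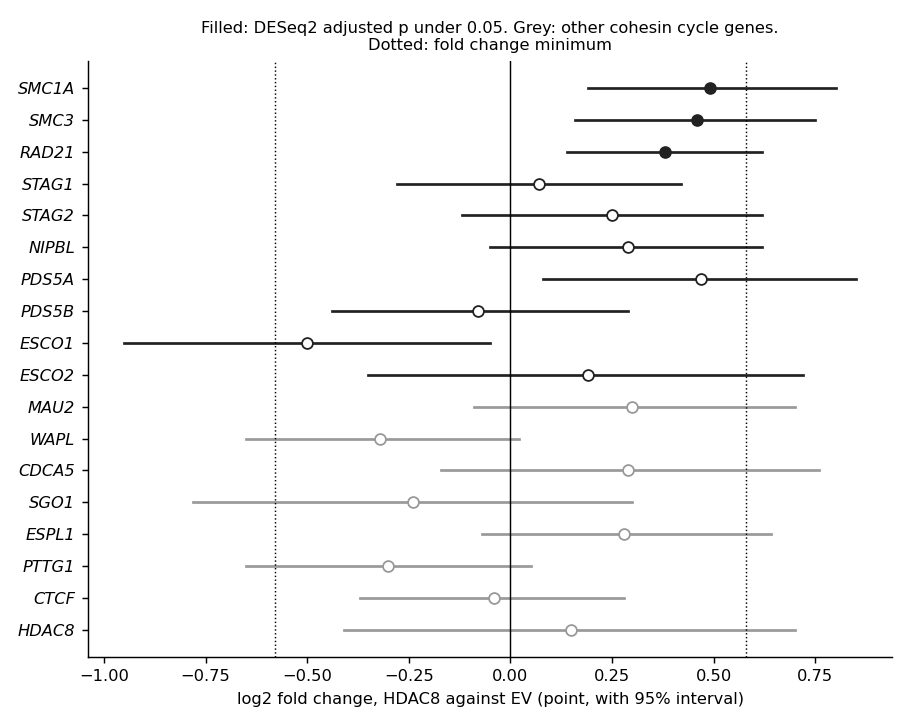
DESeq2 log2 fold changes (x axis) with 95% intervals for the 10 cohesin genes in black and 8 other cohesin cycle genes in grey, filled where the adjusted p was under 0.05. The ring genes, at 0.38 to 0.49, are the filled points, and all 18 points lie inside the dotted lines at the fold change minimum of 0.58 in either direction.

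GC content moved with the values of single libraries. The 10 transcripts had a GC content of 35.7% to 47.0%, with a median of 38.4% against 48% over genes whose normalized count averaged 50 or more. In the quintile of genes with the lowest GC content, which holds 8 of the 10 genes, the median log2 deviation from the mean of the 6 libraries was -0.36 in HDAC8 1 and -0.10 in EV 2, and 0.17, 0.16, 0.17 and 0.04 in EV 1, EV 3, HDAC8 2 and HDAC8 3. HDAC8 1 had the lowest value of its group in 9 of the 10 genes and EV 2 the lowest of its group in 9. SMC1A, the gene with the highest GC content of the 10, was the exception in both, and was the highest of its group there. With each library centred within 20 bins of GC content, 6 of the 10 genes were higher by the adjusted p (9.17% of genes tested), with the addition of STAG2 (0.47, adjusted p = 0.00132), NIPBL (0.37, 0.00245) and PDS5A (0.56, 3.10e-04), and SMC3 passed both thresholds at 0.61 (5.94% of genes called higher). Without HDAC8 1 alone, 5 of the 10 were higher by the adjusted p (7.77%), with PDS5A past both thresholds (5.34%). Without EV 2 and HDAC8 1 together, a choice made after seeing this pattern, 5 were higher (14.1% of genes tested) and ESCO1 was lower (-0.38, adjusted p = 0.0164, against 13.2% of genes tested). ESCO1 did not pass within GC bins (-0.30, adjusted p = 0.22) or without HDAC8 1 alone (-0.31, adjusted p = 0.311). Without EV 2 and HDAC8 1 together, the log2 fold changes of the ring were 0.47, 0.45 and 0.36 for SMC1A, SMC3 and RAD21.

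**Figure D3:**
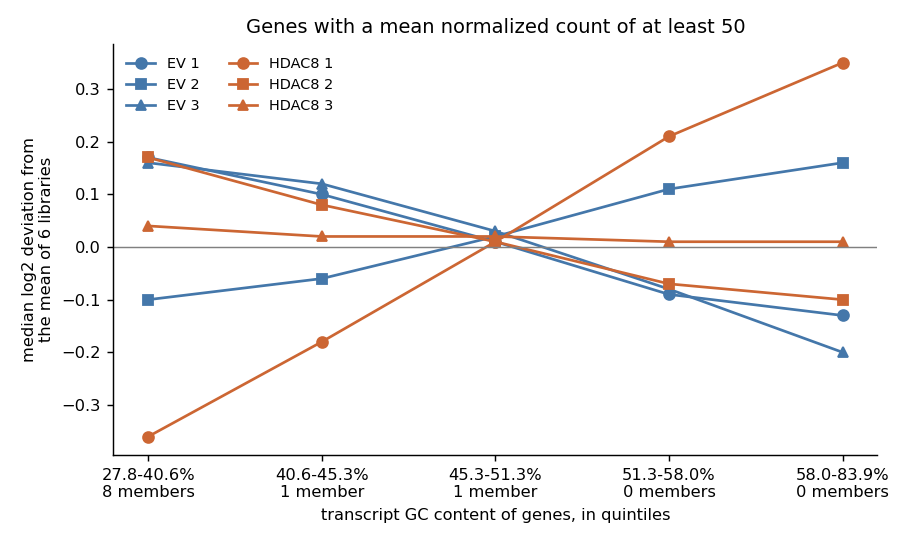
Median log2 deviation of each library from the mean of all 6 (y axis) for genes in quintiles of transcript GC content (x axis), with the number of the 10 cohesin genes in each. HDAC8 1 runs from -0.36 in the lowest quintile to 0.35 in the highest and EV 2 from -0.10 to 0.16, while HDAC8 3 stays within 0.01 to 0.04.

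Levels were then compared between genes as normalized counts per kb of the MANE Select transcript. RAD21 had the highest level in both groups, at 2848 ± 176.7 per kb in EV and 3706 ± 136.1 in the HDAC8 group (SD, n = 3), with no overlap with the next gene. PDS5A, NIPBL, SMC3 and SMC1A followed in this order at 929.1, 879.4, 772.5 and 704.9 per kb in EV and at 1285, 1073, 1061 and 991.9 in the HDAC8 group, and in each group neighbours in this order overlapped. STAG2 (529.3 and 630.0) and PDS5B (585.2 and 555.6) came next and overlapped each other in both groups. STAG1 (357.8) and ESCO1 (379.7) overlapped in EV, whereas in the HDAC8 group ESCO1 (268.7 ± 67) lay below STAG1 (375.2 ± 30.3) in every library. ESCO2 was the lowest in both, at 143.2 ± 19.9 and 163.2 ± 26.1 per kb. The order depends on the length used. Per kb of all annotated exons NIPBL was above RAD21 in EV and SMC3 ranked 8 instead of 4 there, while ESCO2 kept the lowest rank. By that length STAG1 ranked 7 in both groups, above STAG2 at 9 in EV and 8 in the HDAC8 group.

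**Figure D4:**
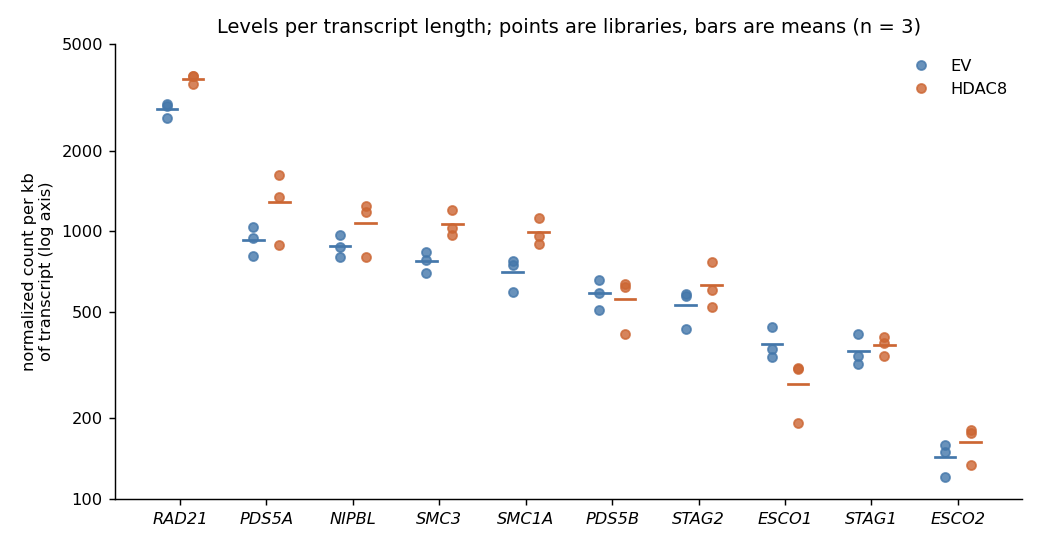
Normalized counts per kb of transcript (y axis, log scale) for the 10 cohesin genes in order of their EV mean, with a point per library and a bar at the group mean (n = 3). RAD21 stands above the other genes in every library and ESCO2 is the lowest.

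Ratios between genes of the same library do not depend on library scaling, and 8 were compared by an exact two-sided permutation test, whose smallest possible p with 3 against 3 libraries is 0.1. Ratios within the ring overlapped between the groups. RAD21 exceeded SMC3 per kb by 3.57 to 3.78 times in EV and 3.16 to 3.7 times in the HDAC8 group, a difference of -0.07 in the log2 ratio (exact permutation p = 0.5, adjusted p = 0.571). The log2 ratio of SMC1A to SMC3 was -0.14 ± 0.27 in EV and -0.10 ± 0.28 in the HDAC8 group (SD, n = 3, exact permutation p = 0.8). STAG2 made up 58.2%, 57.5% and 63% of the STAG level per kb in EV and 60.3%, 65.5% and 61.3% in the HDAC8 group. These shares overlapped between the groups (exact permutation p = 0.3). The majority of STAG2 holds for the MANE Select length only, since per kb of all annotated exons STAG1 ranked above STAG2 in both groups. The log2 ratio of NIPBL to SMC3 (0.19 ± 0.03 in EV and -0.00 ± 0.27 in the HDAC8 group, SD, n = 3, exact permutation p = 0.4) and of HDAC8 to SMC3 (-1.68 ± 0.13 and -1.99 ± 0.22, SD, n = 3, exact permutation p = 0.2) overlapped as well.

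In 3 of the 8 ratios the groups did not overlap. Each reached the smallest exact permutation p of 0.1 (adjusted p = 0.267), so that none passed the threshold. The share of other gene pairs with such a gap was not computed. For single genes averaging 500 or more normalized counts, groups did not overlap in 19% that were higher and 20.1% that were lower. ESCO1 was 2.74, 2.8 and 2.43 times the level of ESCO2 per kb in EV and 1.44, 1.74 and 1.71 times in the HDAC8 libraries. Its share of the summed ESCO level was thus 70.9% to 73.6% in EV and 58.9% to 63.5% in the HDAC8 group, and the log2 ratio differed by -0.71. PDS5A was 1.76, 1.59 and 1.43 times PDS5B in EV and 2.15, 2.56 and 2.17 times in the HDAC8 group, with a difference of 0.53. WAPL, the release factor, was 0.663, 0.606 and 0.696 times NIPBL in EV and 0.534, 0.428 and 0.373 times in the HDAC8 group, a difference of -0.57. HDAC8 1 was the furthest HDAC8 library from the EV group in the ESCO ratio and the nearest in the PDS5 and WAPL ratios. The GC content of the transcripts was 35.7% and 37.4% for ESCO1 and ESCO2, and 40.7% and 39.4% for WAPL and NIPBL. It was 41.0% and 36.4% for PDS5A and PDS5B, which lie in different GC quintiles. No ratio was refitted within GC bins, and the part of GC content in these differences was not tested.

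**Figure D5:**
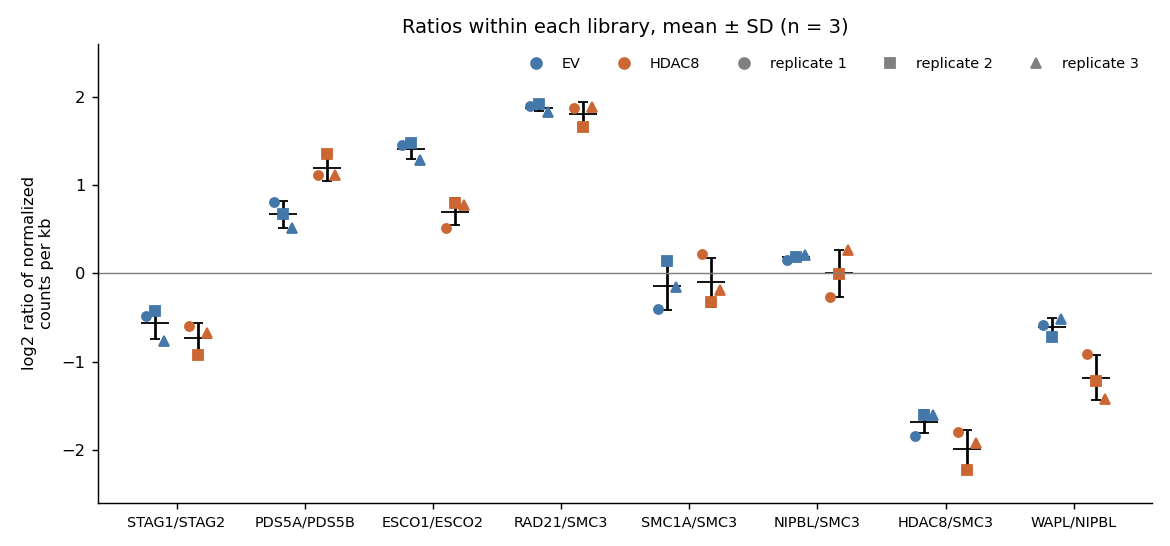
Log2 ratio of normalized counts per kb between 2 genes in each library (y axis) for 8 pairs, EV in blue and HDAC8 in orange, with mean and SD (n = 3). The groups separate for PDS5A/PDS5B (higher), ESCO1/ESCO2 and WAPL/NIPBL (lower) and overlap for the 5 other pairs.

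Other genes of the cohesin cycle did not pass the test, with 0 of 8 higher and 0 of 8 lower at both thresholds. The shares over all genes tested were 5.57% and 5.44%. At an unadjusted DESeq2 p under 0.05 there were also 0, against 9.75% higher and 9.68% lower over all genes. WAPL was at 3650 ± 586.4 and 2932 ± 252.4 normalized counts (SD, n = 3), and its log2 fold change was -0.32 (95% interval -0.65 to 0.02, DESeq2 adjusted p = 0.25). MAU2, the partner of NIPBL, had a log2 fold change of 0.30 and CDCA5 (sororin, which protects acetylated cohesin) of 0.29. ESPL1 (separase) was at 0.28 and PTTG1 (securin, its inhibitor) at -0.30. The groups of PTTG1 did not overlap, as in 20.1% of genes averaging 500 or more normalized counts that were lower. SGO1 (shugoshin, which protects centromeric cohesin) was at -0.24, and CTCF, which halts cohesin at loop anchors, at -0.04 (95% interval -0.37 to 0.28). Of the meiotic cohesin genes SMC1B, STAG3, REC8 and RAD21L1, 3 were fitted and 0 called, and RAD21L1 had a count in HDAC8 1 alone.

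Among factors that establish cohesion at the replication fork, 1 of 8 rose and 0 fell, against 5.57% and 5.44% of all genes tested. WDHD1, which links the replicative helicase to DNA polymerase alpha, rose from 3316 ± 619.6 to 5268 ± 563.8 (SD, n = 3), a log2 fold change of 0.67 (adjusted p = 0.00202 by DESeq2, SE 0.17), with groups that did not overlap. Without EV replicate 2 the number called was 0. Condensin, the related SMC complex of mitotic chromosomes, had 0 of 8 genes called and a median log2 fold change of 0.38, and 2 of its genes were higher by the adjusted p alone. The SMC5/6 complex had 0 of 6 called and a median of -0.12. S phase genes had 5 of 14 higher and 0 lower, with a median of 0.54, and 8 higher within GC bins. Their leading members were the helicase subunits MCM4 (1.03), MCM7 (1.02) and MCM5 (0.82) and the DNA methylation reader UHRF1 (0.87), as log2 fold changes. The summed S phase level was 47425 to 53313 in EV and 74019 to 81671 in the HDAC8 group. Of the G2/M genes, 1 of 14 rose (AURKB, the Aurora B kinase, 0.61) and 0 fell at both thresholds, while by the adjusted p alone MKI67 (-0.55) and PLK1 (-0.45) were lower and KIF11 (0.51) higher, with a median of -0.08 and sums of 101214 to 114563 and 82144 to 101008. The number of G2/M genes called higher was 0 without EV 1, EV 3 or HDAC8 2 and 2 without HDAC8 1, and 1 was called lower without EV 1 or without HDAC8 3. The S phase sum and the ring subunits were each higher in every HDAC8 library than in every EV library. Within the HDAC8 group, the S phase sum was highest in HDAC8 1 (81671), where SMC1A (10877) was highest but SMC3 (5323) and RAD21 (12990) were lowest. HDAC8 1 is also the library that ran with GC content, from -0.36 in the lowest quintile to 0.35 in the highest. The transcripts of SMC1A, SMC3 and RAD21 have a GC content of 47.0%, 37.3% and 40.3%. The part of GC content in this order, and that of the S phase genes in the cohesin values, was not tested. Over the 62 genes of these pathway lists, 7 were higher and 0 lower at both thresholds.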

How the data were processed

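RNA-seq of 3 EV and 3 HDAC8 libraries of WM164 cells was analysed from the deposited table of expected counts, which the authors made by trimming paired-end reads with Trimmomatic, aligning them with STAR and quantifying genes with RSEM. The genome build, annotation and strand setting are not given in the sources used here, and the labels and the methods name different RNA extraction kits. Expected counts were rounded to whole numbers. Groups came from the labels. The 26162 genes with at least 10 counts in all were fitted with DESeq2 1.42.0 (Wald test, Benjamini-Hochberg adjustment, R 4.3.3), the tool the study names, and 21021 received an adjusted p. edgeR 4.0.16 (quasi-likelihood) and limma 3.58.1 (voom) were alternatives, as were other scalings, filters and GC or length bins, each library left out, and a replicate block. Same-numbered libraries did not deviate together (correlations of -0.027, -0.066 and 0.04 over 14451 genes). This gave no sign that the numbers pair them, but with 3 libraries a group it cannot exclude a pairing. Positions, lengths and GC content came from GENCODE 44 on GRCh38. The cohesin genes and gene lists were chosen with earlier results of these data known. Genes named are the 10, HDAC8, every cohesin cycle gene and each called gene of the other pathway lists (where more than 4 were called, the 4 with the largest change among those averaging 50 normalized counts or more). MKI67, PLK1, KIF11, the meiotic cohesin genes and the single cell type markers were named after their values were seen.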

Additional observations from a re-analysis of the deposited data

How the results depend on the processing

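Of 170 refitted log2 fold changes of the 10 cohesin genes, 137 kept direction and side of the adjusted p threshold, 20 lost significance, 8 gained it and 5 changed sign. All 20 losses were in the ring genes, the only ones that could lose it. They were 4 of 17 refits for SMC1A, 8 of 17 for SMC3 and 8 of 17 for RAD21. By the adjusted p, 3 cohesin genes were higher with DESeq2, 0 with edgeR, 1 with limma-voom, 0 with the replicate block, 6 within GC bins, 5 without EV 2 and HDAC8 1 together, and 0 to 5 with a library left out (0 without EV 1 or EV 3, 5 without HDAC8 1); 1 was lower, without EV 2 and HDAC8 1. With a library left out, the share of all genes tested that was higher by the adjusted p moved as well. It was 4.56% without EV 1, 4.63% without EV 3 and 7.77% without HDAC8 1. At both thresholds 1 cohesin gene was called higher within GC bins, 0 to 1 with a library left out, and 3 with no fold minimum. With edgeR the log2 fold changes of SMC1A, SMC3 and RAD21 were 0.49, 0.45 and 0.38, with limma-voom SMC3 and RAD21 were 0.45 and 0.38, and with the replicate block the ring genes were 0.50, 0.45 and 0.38 (adjusted p 0.0625, 0.0911 and 0.0998), none of these significant. With a library left out SMC1A ran from 0.38 to 0.56, SMC3 from 0.37 to 0.52, RAD21 from 0.33 to 0.41, NIPBL from 0.17 to 0.46, PDS5A from 0.27 to 0.67, STAG2 from 0.09 to 0.37, ESCO1 from -0.61 to -0.31, ESCO2 from 0.08 to 0.31, STAG1 from -0.01 (without EV 2) to 0.18 and PDS5B from -0.18 to 0.10 (0.01 without EV 3). Within GC bins STAG2 was 0.47, NIPBL 0.37, PDS5A 0.56 and PDS5B 0.13. Without EV 2 and HDAC8 1, NIPBL was 0.40, PDS5A 0.58, PDS5B 0.00 and ESCO1 -0.38. Of the pathway genes, 11 were called higher within GC bins instead of 7, and 0 to 1 lower with a library left out. The cause of these changes was not tested. Removing EV 2 and HDAC8 1 together, and counting by the adjusted p alone, were chosen after seeing the data. With a library left out the ratio differences ran from 0.44 to 0.60 for PDS5A/PDS5B, -0.77 to -0.62 for ESCO1/ESCO2 and -0.71 to -0.45 for WAPL/NIPBL, and SMC1A/SMC3 changed sign (-0.12 to 0.18). With 3 libraries a group, a single ratio cannot reach p under 0.1.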
